A study of Homo sapiens with 12 samples.

Results

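Cells that run short of amino acids or accumulate unfolded proteins switch on 2 linked programmes of transcription, and the genes described here are 36 representatives of them. The members were the rows of the deposited count table whose gene symbol equals 1 of 36 listed names, 36 of 26485 genes in all. All 36 were found and all passed the filter on low counts, which kept 14498 genes. They include 22 genes of the ATF4 arm (regulators, amino acid enzymes and amino acid transporters). A further 5 are stress sensors and the transcription factor XBP1, together called the sensors below. The other 9 belong to the chaperone and degradation arm that ATF6 and XBP1 serve.

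RNA was sequenced from COV362 and PEO1, which are established human cell lines of high-grade serous ovarian carcinoma. The 4 groups were COV362 given 20 nM prexasertib, COV362 given the solvent DMSO, PEO1 given 20 nM prexasertib and PEO1 given DMSO, each with 3 libraries lettered A, B and C. Prexasertib inhibits the checkpoint kinases CHK1 and CHK2, which hold back the cell cycle when DNA replication is damaged. Both lines were grown in DMEM supplemented with serum, non-essential amino acids and glutamine, among other additions. The labels call the cells parental, do not give the treatment time, and do not say whether the 3 libraries of a group are separate cultures, so the p-values measure the spread between these libraries, which may be technical.

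In the integrated stress response, kinases such as PERK (EIF2AK3) and GCN2 (EIF2AK4) phosphorylate the initiation factor eIF2, general translation falls, and the messenger RNA of the transcription factor ATF4 is translated better. ATF4 then raises genes for amino acid synthesis and uptake, together with factors such as CHOP (DDIT3). In the unfolded protein response of the endoplasmic reticulum, PERK works beside IRE1 (ERN1), which splices the XBP1 messenger RNA, and ATF6, which is cleaved and moves to the nucleus. Both XBP1 and ATF6 raise chaperones such as BiP (HSPA5) and the machinery that sends misfolded proteins to degradation. ATF4 translation, XBP1 splicing and ATF6 cleavage are not visible in counts per gene, so what follows describes transcript amounts only.

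These factors bind short promoter motifs, and the promoters below are shown because each holds a searched motif in a gene described later. The 250 bases before each RefSeq start site (GRCh38.p14) were searched on both strands. Of the 36 members, 33 had an entry, with 48 promoters among them. NUPR1, SHMT2 and SLC7A11 had none. The searched letters were TGATGNAA for the core of the C/EBP-ATF response element that ATF4 binds with C/EBP partners (CARE), CCAAT and CCACG with 9 bases of any kind between them for the endoplasmic reticulum stress response element (ERSE), ATTGG and CCACG with 1 base between them for its second form (ERSE-II), and TGACGTGG for the core of the unfolded protein response element (UPRE). The sequences run 5′ to 3′ along the gene's strand and end 1 base before the start site, and capitals mark the motif, which is on the opposite strand in SDF2L1 and, for the CARE core, in HERPUD1.
SDF2L1 (chr22:21642052-21642301, plus strand): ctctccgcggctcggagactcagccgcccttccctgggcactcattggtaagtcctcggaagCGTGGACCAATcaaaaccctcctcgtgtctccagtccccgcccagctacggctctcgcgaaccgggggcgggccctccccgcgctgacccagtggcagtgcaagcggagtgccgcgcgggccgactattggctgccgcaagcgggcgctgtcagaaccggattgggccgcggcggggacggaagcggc
CEBPG (chr19:33373863-33374112, plus strand): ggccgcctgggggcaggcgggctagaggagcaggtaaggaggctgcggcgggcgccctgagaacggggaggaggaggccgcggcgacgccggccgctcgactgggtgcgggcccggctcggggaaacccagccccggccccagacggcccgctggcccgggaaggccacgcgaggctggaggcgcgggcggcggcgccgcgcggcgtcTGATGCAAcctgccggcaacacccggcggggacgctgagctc
XBP1 (chr22:28800570-28800819, minus strand): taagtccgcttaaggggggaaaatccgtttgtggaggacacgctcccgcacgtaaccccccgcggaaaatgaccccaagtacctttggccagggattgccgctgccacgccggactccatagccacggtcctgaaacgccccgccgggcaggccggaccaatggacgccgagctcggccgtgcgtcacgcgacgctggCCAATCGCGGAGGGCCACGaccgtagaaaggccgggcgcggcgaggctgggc
HERPUD1 (chr16:56931892-56932141, plus strand): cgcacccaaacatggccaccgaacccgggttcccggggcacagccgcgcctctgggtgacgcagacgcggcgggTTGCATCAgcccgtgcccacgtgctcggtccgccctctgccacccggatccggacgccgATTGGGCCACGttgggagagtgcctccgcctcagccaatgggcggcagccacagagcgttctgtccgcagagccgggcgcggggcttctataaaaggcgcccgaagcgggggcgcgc
HSPA5 (chr9:125241344-125241593, minus strand): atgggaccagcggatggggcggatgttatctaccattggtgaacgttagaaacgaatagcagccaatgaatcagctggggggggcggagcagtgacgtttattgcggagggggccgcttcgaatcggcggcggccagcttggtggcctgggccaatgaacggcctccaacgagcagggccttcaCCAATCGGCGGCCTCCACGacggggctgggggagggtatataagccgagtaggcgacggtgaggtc

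The CARE core was found in CEBPG, CHAC1, ASNS and HERPUD1, which is 4 of the 33 members with an entry, and in 3.89% of 27305 genes with an entry. The ERSE was found in XBP1, HSPA5, HSP90B1 and CALR, against 0.0916% of genes. The ERSE-II was found in SDF2L1 and HERPUD1, against 0.0659% of genes, and the UPRE core in 0 members, against 0.78% of genes. In CEBPG the CARE core lay 42 to 35 bases before the start, in ASNS 68 to 61, in HERPUD1 176 to 169 and in CHAC1 209 to 202. The ERSE lay closest to the start in XBP1, at 52 to 34 bases, and in HSPA5, at 66 to 48 bases, whereas HSP90B1 held 1 copy at 89 to 71 and another at 194 to 176 bases and CALR held it at 225 to 207. HERPUD1, which carries both a CARE core and an ERSE-II, was the member with motifs of both arms in this window. The letters overlap between motifs in part (CCACG is shared by the ERSE and the ERSE-II), and a match is a description of sequence, not of binding. The members were listed as genes of these pathways, so their shares of motifs are not an independent result, and they were not tested.

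**Figure D1:**
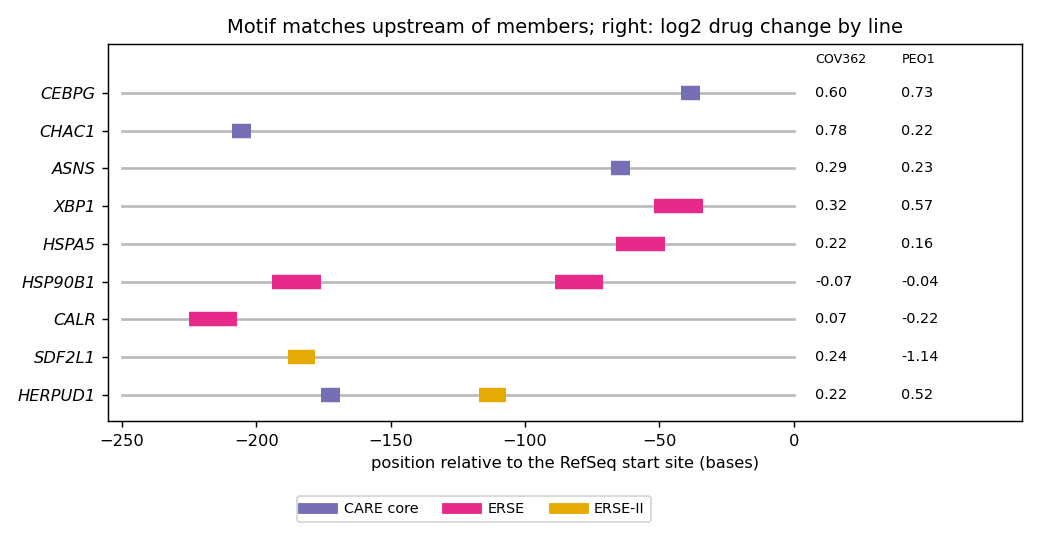
Positions of the searched motifs in the promoters of the members that hold one, as bases before the RefSeq start site on the x axis, with 1 row per gene, blocks coloured by motif, and the log2 drug changes in COV362 and PEO1 at the right. The CARE core appears in CEBPG, CHAC1, ASNS and HERPUD1, the ERSE in XBP1, HSPA5, HSP90B1 and CALR, and the ERSE-II in SDF2L1 and HERPUD1.

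Library totals ranged from 9390790 to 18262805 counts. Levels are given in CPM, that is counts relative to the library size, which was scaled with TMM factors. Summed over 10 epithelial markers, COV362 libraries had 2328 to 3536 CPM with prexasertib and 2305 to 2847 with DMSO, and PEO1 libraries had 3725 to 4347 with prexasertib and 7370 to 8588 with DMSO, none of these genes being at 0 in any group. The 6 fibroblast markers summed to 3.93 to 9.58 CPM over all libraries, with LUM at 0 in every group and DCN or COL3A1 at 0 in some groups. The 4 endothelial markers summed to 55.03 to 56.02 CPM with prexasertib and 80.7 to 96.5 with DMSO in COV362, and to 1.43 to 3.68 with prexasertib and 6.49 to 7.57 with DMSO in PEO1, none at 0 over a group. The epithelial sum in PEO1 and the endothelial sum in both lines were thus lower with the drug, and their part in the results below was not tested. Within PEO1's epithelial sum, KRT7 was the largest item, at 3378, 2859 and 2882 CPM with DMSO and 1526, 1241 and 1573 with prexasertib. EPCAM did not fall there, at 431, 446 and 379 CPM with DMSO and 480, 433 and 435 with prexasertib. CDH5 held most of COV362's endothelial sum, at 69.9, 83.6 and 68.1 CPM with DMSO and 47.6, 42.0 and 46.0 with prexasertib. CHEK1 and CHEK2 code for the kinases that the drug inhibits, and their transcripts do not check the labels. CHEK1 changed with the drug by a log2 fold change of -0.17 ± 0.12 (SE) in COV362 and -0.17 ± 0.12 in PEO1, neither past the test, and CHEK2 by -0.53 ± 0.18 in COV362 (adjusted p = 0.204) and -0.49 ± 0.17 in PEO1 (adjusted p = 0.0488), in edgeR with Benjamini-Hochberg adjustment.

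With prexasertib, 14 members rose and 5 fell in PEO1, whereas 2 rose and 0 fell in COV362. The 14 are 38.9% of the members and the 5 are 13.9%, against 14.7% of all tested genes called higher and 14.6% called lower in PEO1. In COV362 the 2 are 5.56% of the members, against 0.607% of all tested genes called higher and 0.221% called lower. A gene was called when its Benjamini-Hochberg adjusted p from edgeR's quasi-likelihood test was under 0.05, over all 14498 tested genes. For the count of 0 lower members in COV362, 0 members had an unadjusted p under 0.05 in that direction, and 0 were called lower by DESeq2 and by limma-voom. The median log2 fold change of the 36 members was 0.15 in COV362 and 0.27 in PEO1, against -0.01 in COV362 and 0.01 in PEO1 for all tested genes. In bulk RNA from a culture, a smaller share of cells with a transcript and less transcript per cell cannot be told apart.

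The replicate letters marked a shared deviation in COV362, so a fit with the letter as a block within each line is also given there where it changes a call. Under that fit 9 members were higher and 2 lower in COV362, against 5.74% of all tested genes called higher and 7.9% called lower. The 9 higher members were all of the ATF4 arm. They were DDIT3, CEBPB, CEBPG, NUPR1, TRIB3, CHAC1, STC2, ASNS and SLC3A2, and the 2 lower ones were EIF2AK4 and PDIA4. In the fit without the block, only DDIT3 and SLC3A2 were called in COV362, and both calls were lost when the 6 COV362 libraries were fitted alone. For some differences between the lines the fit with the block is given too. There the block also enters PEO1, whose letters do not pair its libraries by the rule used. It called 17.8% of all tested genes higher and 16% lower in that comparison, against 3.14% and 2.97% without the block.

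By arm, the ATF4 arm had 8 of 22 members higher and 2 lower in PEO1, a share of 36.4% higher and 9.09% lower, with a median log2 fold change of 0.33. The sensors had 3 of 5 higher and 1 lower, 60% and 20%, with a median of 0.54. The chaperone and degradation arm had 3 of 9 higher and 2 lower, 33.3% and 22.2%, with a median of -0.04. Of all tested genes, 14.7% were called higher and 14.6% lower in PEO1. In COV362 the 2 called members were of the ATF4 arm, whose median was 0.16, against 0.17 for the sensors and 0.07 for the chaperone arm. The count of lower members in PEO1 depended on the setting. In the ATF4 arm the 2 lower members became 5 with DESeq2, 4 with limma-voom and 6 with the letter block. In the chaperone arm the 2 lower members stayed at 2 with DESeq2 and limma-voom and became 4 with the letter block. The 8 higher members of the ATF4 arm stayed at 8 with DESeq2 and limma-voom and became 13 with the letter block. The arms were not tested against each other.

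**Figure D2:**
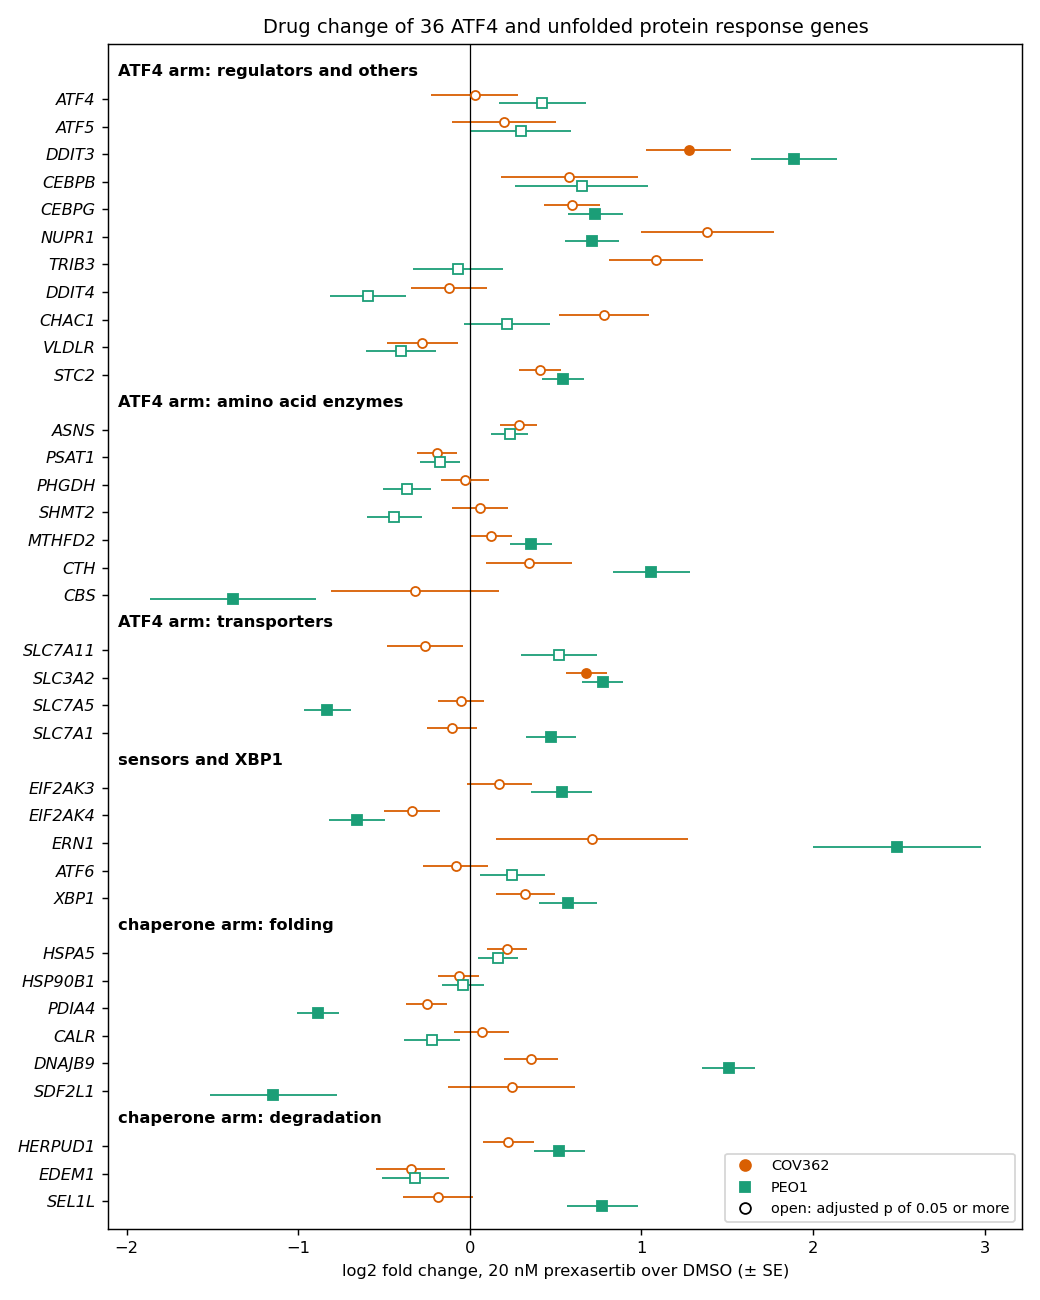
Log2 fold change, prexasertib over DMSO, of each of the 36 members in COV362 and in PEO1, with bars of 1 standard error from the edgeR fit, open symbols for members that did not pass the test, and the members grouped by role. DDIT3 stands at 1.27 in COV362 and 1.89 in PEO1, ERN1 at 2.49 and DNAJB9 at 1.51 in PEO1, and SLC7A5 and PDIA4 at -0.83 and -0.88 in PEO1.

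Among the regulators of the ATF4 arm, DDIT3 was the one called in both lines. DDIT3 (chr12:57516588-57520517 in hg38) codes for CHOP, a transcription factor that ATF4 induces and that favours cell death under lasting stress. It had 158, 118 and 123 CPM in COV362 with prexasertib, against 79.4, 38.8 and 47.5 CPM with DMSO. In PEO1 it had 152, 123 and 113 CPM with prexasertib, against 44.1, 33.3 and 27.4 CPM with DMSO. In both lines every prexasertib library was above every DMSO library, and the A library was the highest in each group. Its log2 fold change was 1.27 ± 0.25 in COV362 (edgeR adjusted p = 0.0295) and 1.89 ± 0.25 in PEO1 (adjusted p = 0.000143). The COV362 call was lost when COV362 DMSO B or C, COV362 prexasertib A or C, or PEO1 DMSO B was left out, and with the letter block it had a change of 1.32 ± 0.10 and an adjusted p of 3.32e-11. Of its 1178 exon bases, 68 overlap the opposite-strand gene MARS, and the library kit does not keep the strand.

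ATF4 itself, the factor that gives the arm its name, did not pass the test in the fit without the block. It had 637, 377 and 391 CPM in COV362 with prexasertib, against 634, 348 and 395 CPM with DMSO. In PEO1 it had 471, 304 and 336 CPM with prexasertib, against 317, 273 and 238 CPM with DMSO. The groups overlapped in both lines, and the A library was highest in all 4 groups. The log2 fold change was 0.03 ± 0.25 in COV362 and 0.42 ± 0.25 in PEO1 (edgeR adjusted p = 0.989 in COV362 and 0.226 in PEO1). In PEO1 it was called higher in 4 of 10 other settings, those with a letter block and without the A libraries. That PEO1 change was called in 0 of the 12 fits that left out 1 library.

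CEBPG, a C/EBP factor that pairs with ATF4, had 139.7, 114 and 103 CPM with prexasertib, against 81.3, 75.5 and 57.7 CPM with DMSO in PEO1. In COV362 it had 99.8, 98.7 and 91.7 CPM with prexasertib, against 72.1, 54.0 and 66.0 CPM with DMSO. The prexasertib libraries lay above the DMSO libraries in both lines, and the log2 fold change was 0.73 ± 0.16 in PEO1 (edgeR adjusted p = 0.00418) and 0.60 ± 0.16 in COV362 (adjusted p = 0.11, or 0.61 ± 0.09, adjusted p = 3.06e-05 with the letter block). Its promoter, printed above, holds the CARE core.

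NUPR1, a small stress-induced cofactor of transcription, had 122, 93.5 and 112 CPM with prexasertib, against 71.8, 68.4 and 60.0 CPM with DMSO in PEO1, with no overlap and a log2 fold change of 0.71 ± 0.16 (edgeR adjusted p = 0.00455). In COV362 it was near the limit of detection, with 10 to 13 counts per library with prexasertib and 1 to 6 with DMSO, and 1.39 ± 0.39 was not called (adjusted p = 0.117, or 1.34 ± 0.47, adjusted p = 0.0494 with the letter block). STC2, which codes for a secreted glycoprotein of the stress response, had 408, 351 and 372 CPM with prexasertib, against 285, 253 and 240.0 CPM with DMSO in PEO1. The groups did not overlap, with a log2 fold change of 0.54 ± 0.12 in PEO1 (edgeR adjusted p = 0.00485) and 0.41 ± 0.12 in COV362 (adjusted p = 0.155, or 0.41 ± 0.08, adjusted p = 0.000866 with the letter block).

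The other regulators were not called in PEO1, and among them TRIB3 had the largest fitted difference between the lines. TRIB3, a pseudokinase induced by ATF4 and CHOP, had 124, 62.5 and 70.8 CPM with prexasertib, against 56.5, 27.9 and 37.5 CPM with DMSO in COV362. In PEO1 it had 218, 175 and 206 CPM with prexasertib, against 251, 201 and 176 CPM with DMSO. The COV362 groups did not overlap, whereas the PEO1 groups did. Its log2 fold change was 1.08 ± 0.27 in COV362 (edgeR adjusted p = 0.0856, or 1.07 ± 0.10, adjusted p = 1.48e-09 with the letter block) and -0.07 ± 0.26 in PEO1 (adjusted p = 0.873), and the difference between these changes, -1.15 ± 0.38, was not past the test (adjusted p = 0.0839, or 7.87e-08 with the letter block). That difference passed in 7 of 9 other settings. For a difference the block also enters PEO1, whose letters do not pair by the rule used. CHAC1, an enzyme that degrades glutathione, averaged 16.2 ± 4.24 CPM with prexasertib and 9.46 ± 2.09 CPM with DMSO in COV362 (SD, n = 3 each), a log2 fold change of 0.78 ± 0.26 that was called with the letter block alone (adjusted p = 0.207 without it and 0.00263 with it).

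CEBPB, another C/EBP factor, had a log2 fold change of 0.58 ± 0.40 in COV362 (edgeR adjusted p = 0.611, or 0.000912 with the letter block) and 0.65 ± 0.39 in PEO1 (adjusted p = 0.224). In CEBPB, 561 of 2109 exon bases overlap the antisense gene CEBPB-AS1. ATF5, a factor related to ATF4, and VLDLR, a lipoprotein receptor that ATF4 induces, were not called in either line, with 0.20 ± 0.30 and -0.28 ± 0.21 in COV362 and 0.30 ± 0.29 and -0.40 ± 0.21 in PEO1. DDIT4, an inhibitor of mTORC1 signalling, averaged 161 ± 14.9 CPM with prexasertib and 244 ± 22.2 CPM with DMSO in PEO1 (SD, n = 3 each), and its -0.59 ± 0.22 missed the threshold (adjusted p = 0.0569), with -0.12 ± 0.22 in COV362.

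Of the 7 amino acid enzymes, 2 were higher and 1 lower in PEO1, with a median log2 fold change of -0.18. The shares, 28.6% and 14.3%, stand beside 14.7% and 14.6% of all tested genes, and the lower gene is CBS, whose counts are uncertain. CTH, which makes cysteine from cystathionine, had 19.7, 18.4 and 18.05 CPM with prexasertib, against 8.62, 9.23 and 9.13 CPM with DMSO in PEO1. The groups were far apart relative to their spread, and the log2 fold change was 1.06 ± 0.23 (edgeR adjusted p = 0.00348), against 0.34 ± 0.25 in COV362 (adjusted p = 0.647). MTHFD2, a mitochondrial enzyme of folate metabolism, had 351, 364 and 343 CPM with prexasertib, against 256, 299 and 271 CPM with DMSO in PEO1, with no overlap and 0.36 ± 0.12 (adjusted p = 0.0374), against 0.13 ± 0.12 in COV362. That call was lost with DESeq2's size factors inside edgeR, with no filter on low counts, and in 8 of the 12 fits that left out 1 library.

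CBS, which makes the cystathionine that CTH uses, was the enzyme called lower. It had 1.06, 1.48 and 1.99 CPM with prexasertib, against 3.002, 3.53 and 5.28 CPM with DMSO in PEO1, and the groups did not overlap at 18 to 33 counts per library with prexasertib and 46 to 96 with DMSO. The log2 fold change was -1.38 ± 0.48 (edgeR adjusted p = 0.0444), against -0.32 ± 0.49 in COV362, and the PEO1 call was lost without the A libraries and in 6 of the 12 fits that left out 1 library. The count table lists CBS at a pair of separate places on chromosome 21, 1 of them a near-identical copy, so its counts are uncertain.

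Serine and asparagine synthesis showed no called change in the fit without the block. PHGDH and PSAT1, which carry out the first steps of serine synthesis, had log2 fold changes of -0.37 ± 0.14 (edgeR adjusted p = 0.0653) and -0.18 ± 0.12 (adjusted p = 0.278) in PEO1, and -0.03 ± 0.14 and -0.19 ± 0.12 in COV362. PHGDH was called lower in PEO1 in 8 of 10 other settings, and SHMT2 in all 10. SHMT2, which turns serine into glycine in mitochondria, averaged 221 ± 22.2 CPM with prexasertib and 299.9 ± 20.9 CPM with DMSO in PEO1 (SD, n = 3 each), a change of -0.44 ± 0.16 (adjusted p = 0.0549), and had 0.06 ± 0.16 in COV362. ASNS, the asparagine synthetase whose promoter holds a CARE core, had 0.23 ± 0.11 in PEO1 (adjusted p = 0.118) and 0.29 ± 0.11 in COV362 (adjusted p = 0.275, or 0.0141 with the letter block).

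Of the 4 amino acid transporters, 2 were higher and 1 lower in PEO1, 50% and 25% beside 14.7% and 14.6% of all tested genes. The heavy and light chain of 1 transporter moved in opposite directions there. SLC3A2 (4F2hc, chr11:62856012-62888883) codes for the heavy chain that takes several light chains to the cell surface. It had 488, 420.2 and 481 CPM with prexasertib, against 323, 261 and 284 CPM with DMSO in COV362. In PEO1 it had 787, 700.2 and 793 CPM with prexasertib, against 460.5, 455 and 418 CPM with DMSO. In both lines all prexasertib libraries lay above all DMSO libraries, with log2 fold changes of 0.68 ± 0.12 in COV362 (edgeR adjusted p = 0.0169) and 0.77 ± 0.12 in PEO1 (adjusted p = 0.000443). The COV362 call was lost without COV362 DMSO B, COV362 DMSO C or COV362 prexasertib C, and the letter block gave 0.68 ± 0.08, adjusted p = 1.99e-07. The difference between the lines' changes was 0.09 ± 0.17 (adjusted p = 0.775).

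SLC7A5 (LAT1, chr16:87830023-87869494), the light chain that pairs with SLC3A2 to carry large neutral amino acids such as leucine, fell in PEO1. It had 488, 499.6 and 573 CPM with prexasertib, against 963, 853 and 960.3 CPM with DMSO in PEO1. The COV362 libraries had 316, 268 and 356 CPM with prexasertib, against 313, 293 and 368 CPM with DMSO. All PEO1 prexasertib libraries lay below all PEO1 DMSO libraries, and the COV362 groups overlapped. Its log2 fold change was -0.83 ± 0.14 in PEO1 (edgeR adjusted p = 0.000673) and -0.05 ± 0.14 in COV362 (adjusted p = 0.94), and the difference between the lines was -0.78 ± 0.19 (adjusted p = 0.0332). That difference was not called without the 4 A libraries.

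SLC7A1, a carrier of arginine and lysine, rose in PEO1. It had 208, 218 and 199 CPM with prexasertib, against 133, 154 and 163 CPM with DMSO, with no overlap and a log2 fold change of 0.47 ± 0.14 (edgeR adjusted p = 0.0242), against -0.10 ± 0.14 in COV362. The call was lost without the filter and when any 1 of the 6 PEO1 libraries was left out. SLC7A11 (xCT), the cystine carrier that also pairs with SLC3A2, averaged 92.4 ± 17.0 CPM with prexasertib and 64.5 ± 8.75 CPM with DMSO in PEO1 (SD, n = 3 each), and its 0.52 ± 0.22 was not called (adjusted p = 0.0934), nor was -0.26 ± 0.22 in COV362. Its PEO1 groups did not overlap. The PEO1 change was called higher in 6 of 10 other settings and in 0 of the 12 fits that left out 1 library.

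Among the sensors, ERN1 had the largest fitted change of all 36 members. ERN1 (IRE1, chr17:64043030-64130142) is the kinase and ribonuclease of the endoplasmic reticulum membrane that splices XBP1. It had 9.16, 17.4 and 12.3 CPM with prexasertib, against 0.979, 2.33 and 3.52 CPM with DMSO in PEO1, or 156 to 316 counts per library with prexasertib and 15 to 64 with DMSO. The groups did not overlap, although the DMSO libraries differed several-fold among themselves. The log2 fold change was 2.49 ± 0.49 (edgeR adjusted p = 0.00209), a fold of 5.61. In COV362 it had 1.06, 3.21 and 1.71 CPM with prexasertib, against 0.363, 1.86 and 1.17 CPM with DMSO, with overlap and 0.71 ± 0.56 (adjusted p = 0.676). The difference between the lines, 1.77 ± 0.74, was not past the test (adjusted p = 0.155, or 0.00418 with the letter block). That block also enters PEO1, where the letters do not pair by the rule used.

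XBP1, the factor that IRE1 activates, had 133, 133 and 132 CPM with prexasertib, against 80.9, 106 and 79.96 CPM with DMSO in PEO1. The prexasertib libraries were close together and above all DMSO libraries, with a log2 fold change of 0.57 ± 0.17 (edgeR adjusted p = 0.0199) in PEO1 and 0.32 ± 0.17 in COV362 (adjusted p = 0.467). The counts do not separate its spliced form from its unspliced form. EIF2AK3 (PERK) had 19.7, 24.2 and 21.6 CPM with prexasertib, against 11.9, 17.4 and 15.9 CPM with DMSO in PEO1, with no overlap and 0.54 ± 0.18 (adjusted p = 0.0361), against 0.17 ± 0.19 in COV362. The EIF2AK3 call was lost without the filter, without the A libraries and in 7 of the 12 fits that left out 1 library, and the XBP1 call in 5 of those 12. Of its 4648 exon bases, 781 overlap an opposite-strand gene of the table.

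EIF2AK4 (GCN2), the eIF2 kinase that senses uncharged transfer RNA, was the sensor that fell. It had 39.5, 53.7 and 47.2 CPM with prexasertib, against 71.2, 73.0 and 77.3 CPM with DMSO in PEO1, all below all DMSO libraries, and the log2 fold change was -0.66 ± 0.16 (edgeR adjusted p = 0.00886). In COV362 it averaged 85.3 ± 18.1 CPM with prexasertib and 108 ± 10.4 CPM with DMSO (SD, n = 3 each), a change of -0.34 ± 0.16 (adjusted p = 0.421, or -0.35 ± 0.10, adjusted p = 0.0122 with the letter block). ATF6 was not called in either line, with 0.25 ± 0.19 in PEO1 and -0.08 ± 0.19 in COV362.

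The folding genes of the endoplasmic reticulum did not move as 1 group. HSPA5 (BiP), the main chaperone and the gene most often read as a gauge of the response, averaged 812 ± 66.4 CPM with prexasertib and 699.8 ± 33.9 CPM with DMSO in COV362 and 865 ± 39.8 CPM with prexasertib and 772 ± 76.4 CPM with DMSO in PEO1 (SD, n = 3 each). Its log2 fold change was 0.22 ± 0.12 in COV362 and 0.16 ± 0.12 in PEO1, neither called (edgeR adjusted p = 0.489 and 0.319). HSP90B1 (GRP94) and CALR (calreticulin), chaperones whose promoters hold an ERSE like that of HSPA5, had -0.04 ± 0.12 and -0.22 ± 0.16 in PEO1 and -0.07 ± 0.12 and 0.07 ± 0.16 in COV362, none called. Of the 4 members with an ERSE, XBP1 was called, in PEO1.

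DNAJB9 was the folding gene that rose. DNAJB9 (ERdj4, chr7:108569745-108574850) is a co-chaperone of BiP that XBP1 induces. It had 26.8, 25.4 and 28.1 CPM with prexasertib, against 9.86, 9.18 and 9.18 CPM with DMSO in PEO1. The COV362 libraries had 12.4, 10.5 and 10.1 CPM with prexasertib, against 7.98, 8.82 and 8.86 CPM with DMSO. The groups did not overlap in either line, and the libraries of a PEO1 group lay close together. Its log2 fold change was 1.51 ± 0.15 in PEO1 (edgeR adjusted p = 1.95e-05), a fold of 2.85, and 0.35 ± 0.16 in COV362 (adjusted p = 0.362), with a difference between the lines of 1.15 ± 0.22 (adjusted p = 0.0105).

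PDIA4 and SDF2L1 fell in PEO1. PDIA4 (ERp72, chr7:149003062-149028690), a disulfide isomerase, had 169, 178 and 182 CPM with prexasertib, against 305, 336 and 333 CPM with DMSO in PEO1. In COV362 it had 215, 244 and 258 CPM with prexasertib, against 245, 308 and 299 CPM with DMSO. The PEO1 prexasertib libraries lay far below the DMSO ones, while the COV362 groups overlapped. The log2 fold change was -0.88 ± 0.12 in PEO1 (edgeR adjusted p = 0.000198) and -0.25 ± 0.12 in COV362 (adjusted p = 0.419, or -0.25 ± 0.08, adjusted p = 0.0268 with the letter block), with a difference between the lines of -0.63 ± 0.17 (adjusted p = 0.0461).

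SDF2L1, a partner of BiP and its J-domain proteins whose promoter holds the ERSE-II, had 6.28, 3.52 and 3.98 CPM with prexasertib, against 12.7, 9.66 and 8.19 CPM with DMSO in PEO1. The COV362 libraries had 12.8, 4.26 and 8.06 CPM with prexasertib, against 8.11, 4.77 and 8.34 CPM with DMSO. It was lower in all PEO1 prexasertib libraries, and the COV362 groups overlapped. Its log2 fold change was -1.14 ± 0.37 in PEO1 (edgeR adjusted p = 0.0315) and 0.24 ± 0.37 in COV362, and the difference of -1.39 ± 0.52 was not past the test (adjusted p = 0.121, or 0.00135 with the letter block). In the test of the difference the block also enters PEO1, where the letters do not pair by the rule used. The PEO1 call was lost in 4 of the 12 fits that left out 1 library.

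Of the 3 genes of endoplasmic reticulum-associated degradation, 2 rose and 0 fell in PEO1, 66.7% and 0% beside 14.7% and 14.6% of all tested genes. HERPUD1, a membrane protein that organises the degradation complex, had 112, 93.0 and 101 CPM with prexasertib, against 75.0, 70.4 and 67.9 CPM with DMSO in PEO1, with no overlap and a log2 fold change of 0.52 ± 0.15 (edgeR adjusted p = 0.0168). SEL1L, the adaptor of the ubiquitin ligase HRD1, had 126, 150.0 and 111 CPM with prexasertib, against 60.8, 77.4 and 88.2 CPM with DMSO in PEO1. In COV362 it had 64.1, 102 and 84.2 CPM with prexasertib, against 78.0, 119 and 86.6 CPM with DMSO. Its PEO1 groups did not overlap and its COV362 groups did, with log2 fold changes of 0.77 ± 0.21 in PEO1 (adjusted p = 0.0126) and -0.18 ± 0.21 in COV362, and the difference of 0.96 ± 0.29 was not past the test (adjusted p = 0.0657, or 7.47e-06 with the letter block). The block behind the second p-value of that difference also enters PEO1, where the letters do not pair by the rule used. Leaving out 1 library in turn ended the PEO1 call of HERPUD1 in 5 and of SEL1L in 3 of 12 fits. HERPUD1 had 0.22 ± 0.15 in COV362. EDEM1, which hands misfolded glycoproteins to this machinery, was not called, with -0.32 ± 0.19 in PEO1 and -0.34 ± 0.20 in COV362.

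**Figure D3:**
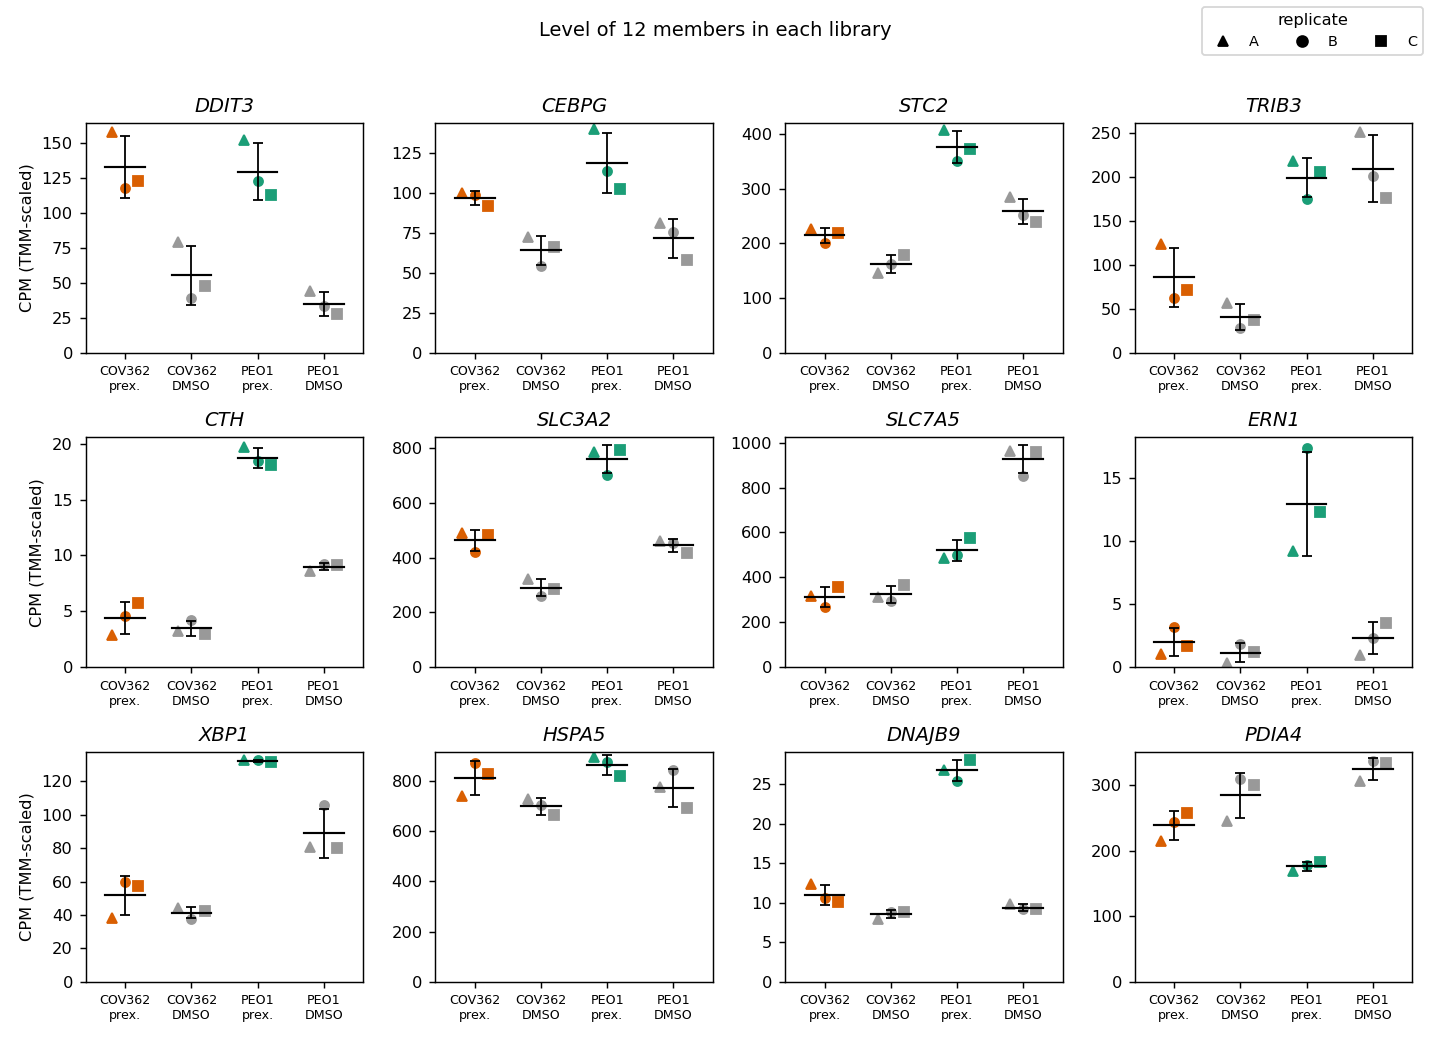
CPM of 12 members in each library, with prexasertib left of DMSO in each line, points shaped by replicate letter, horizontal lines for group means and error bars of 1 SD (n = 3 each). DDIT3 and SLC3A2 have higher points with prexasertib in both lines, DNAJB9 and ERN1 are set apart in PEO1, and SLC7A5 and PDIA4 are lower with prexasertib in PEO1.

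In PEO1, 16 members had all prexasertib libraries above all DMSO libraries and 11 had all below. In COV362, 10 had all above and 0 below. By the same rule, 25% of all tested genes lay above and 25% below in PEO1, against 44.4% and 30.6% of the members, and 6.82% lay above and 7.63% below in COV362, against 27.8% and 0% of the members. Of the 19 members called in PEO1, 11 were called under every alternative run, namely DDIT3, CEBPG, NUPR1, STC2, CTH, SLC3A2, SLC7A5, EIF2AK4, ERN1, PDIA4 and DNAJB9. The A library was the highest of its group in all 4 groups for 9 members, ATF4, DDIT3, CEBPB and TRIB3 among them, and the lowest in all 4 for 7, EIF2AK3, ERN1 and PDIA4 among them. In those A libraries the deviation from the group mean fell with exon length over all tested genes, with a Spearman correlation of -0.41 in COV362 DMSO A, -0.37 in COV362 prexasertib A, -0.36 in PEO1 DMSO A and -0.35 in PEO1 prexasertib A, and its part in the members' spread was not tested.

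The test of the difference between the lines' drug changes called 1 member higher (DNAJB9) and 2 lower (SLC7A5 and PDIA4) in PEO1 relative to COV362. These are 2.78% and 5.56% of the members, against 3.14% and 2.97% of all tested genes called in those directions, which is near the background. The other 33 members had no called difference in that fit, including the 16 that were called in PEO1. With the letter block within each line, 8 members were called higher and 8 lower, against 17.8% and 16% of all tested genes. The 8 higher ones were ATF4, DDIT3, SLC7A11, SLC7A1, ERN1, ATF6, DNAJB9 and SEL1L, and the 8 lower ones TRIB3, DDIT4, PHGDH, SHMT2, SLC7A5, PDIA4, CALR and SDF2L1. The letters pair the libraries of COV362 but not those of PEO1 by the rule used, and the block enters both lines in that fit. DNAJB9 kept its call in every alternative run. Of the 12 fits that left out 1 library, SLC7A5 kept its call in 6 and PDIA4 in 2.

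Other genes of the same pathways were read from lists that hold none of the members. The lists, like the members, were chosen with earlier results of these data known, so their shares are not an independent result. Of 30 tested further ATF4 targets, 2 were higher and 0 lower in COV362 by edgeR (6 and 0 at an unadjusted p under 0.05), and 6 were higher and 4 lower in PEO1, with a median log2 fold change of 0.12 in both lines. In PEO1 these are 20% and 13.3% of the list, near the 14.7% and 14.6% of all tested genes. In COV362 they are 6.67% and 0%, against 0.607% and 0.221% of all tested genes. The 2 in COV362 were ATF3 and PPP1R15A. ATF3, a stress-induced transcription factor, had 263, 199.9 and 209 CPM with prexasertib, against 15.1, 13.2 and 12.2 CPM with DMSO in PEO1. The COV362 libraries had 99.8, 90.4 and 88.4 CPM with prexasertib, against 15.7, 11.3 and 13.8 CPM with DMSO. Its groups were far apart in both lines, with log2 fold changes of 4.05 ± 0.17 in PEO1 (edgeR adjusted p = 5.81e-09) and 2.78 ± 0.16 in COV362 (adjusted p = 1.6e-06), and a difference of 1.27 ± 0.22 (adjusted p = 0.00681). PPP1R15A (GADD34), which takes the phosphatase to eIF2 and ends the block of translation, averaged 447 ± 64.2 CPM with prexasertib and 59.2 ± 10.9 CPM with DMSO in PEO1 and 165 ± 9.70 CPM with prexasertib and 59.5 ± 10.2 CPM with DMSO in COV362 (SD, n = 3 each). Its change on the log2 scale was 2.92 ± 0.17 in PEO1 (adjusted p = 2.01e-07) and 1.47 ± 0.17 in COV362 (adjusted p = 0.00145), with a difference of 1.45 ± 0.23 (adjusted p = 0.00484).

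The third named gene of that list in PEO1 was KLHL24, an adaptor of a ubiquitin ligase, which had 29.9, 45.4 and 39.2 CPM with prexasertib, against 9.79, 13.2 and 10.3 CPM with DMSO and a log2 fold change of 1.78 ± 0.30 (edgeR adjusted p = 0.000804). The other 3 that rose in PEO1 were SESN2, SLC38A2 and SARS, with log2 fold changes of 1.14, 0.64 and 0.60. The 4 that fell were JDP2, PYCR1, PCK2 and ALDH18A1, with changes of -1.17, -0.70, -0.59 and -0.44. PYCR1 and ALDH18A1 are enzymes of proline synthesis. The difference between the lines was called higher in PEO1 for 4 of these genes (ATF3, PPP1R15A, KLHL24 and SLC38A2) and lower for 0 (4 at an unadjusted p under 0.05). The shares are 13.3% and 0% of the list, against 3.14% and 2.97% of all tested genes.

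Of 30 further ATF6 and XBP1 targets, 6 were higher and 6 lower in PEO1, 20% in each direction and near the background of 14.7% and 14.6%, with a median log2 fold change of 0.12, and 0 were called in COV362 by edgeR (median -0.06, with 1 gene of each direction at an unadjusted p under 0.05). The called genes with the largest changes in PEO1 were PDIA5, FKBP14 and CRELD2. PDIA5, a disulfide isomerase, had 12.9, 11.5 and 16.2 CPM with prexasertib, against 31.7, 32.8 and 30.7 CPM with DMSO, a log2 fold change of -1.23 ± 0.18 (adjusted p = 0.000301). FKBP14, a prolyl isomerase of the endoplasmic reticulum, had 16.8, 20.0 and 16.6 CPM with prexasertib, against 8.09, 8.58 and 9.13 CPM with DMSO, a change of 1.05 ± 0.20 (adjusted p = 0.00199). CRELD2, a protein with a role in disulfide exchange, had 17.3, 15.6 and 20.1 CPM with prexasertib, against 36.1, 29.9 and 31.8 CPM with DMSO, a change of -0.88 ± 0.20 (adjusted p = 0.00437). PDIA5 and CRELD2 were lower and FKBP14 higher in every prexasertib library than in any DMSO library of PEO1.

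The eIF2 switch was covered by 11 genes for kinases, phosphatase regulators and the exchange factor, of which 3 rose and 1 fell in PEO1, 27.3% and 9.09% beside 14.7% and 14.6% of all tested genes, and 0 were called in COV362 (2 higher at an unadjusted p under 0.05). EIF2B2, a subunit of the exchange factor eIF2B, averaged 117 ± 11.5 CPM with prexasertib and 62.0 ± 2.81 CPM with DMSO in PEO1 (SD, n = 3 each), a log2 fold change of 0.92 ± 0.13 (edgeR adjusted p = 0.00023). PPP1R15B (CReP), the constitutive partner of the eIF2 phosphatase, rose by 0.77 ± 0.21 on the log2 scale (adjusted p = 0.0137), and EIF2S1, the phosphorylated subunit itself, rose by 0.69 ± 0.13 (adjusted p = 0.00142). EIF2AK1 (HRI), the kinase known from heme shortage and mitochondrial stress, was lower, with -0.50 ± 0.16 (adjusted p = 0.0267).

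In DMSO the lines already differed in these genes, with PEO1 higher than COV362 in most of those called. There, 17 members were higher and 4 lower in PEO1, which is 47.2% and 11.1% of the members, against 29.1% and 28.6% of all tested genes. The 4 lower ones were ATF4, DDIT3, SHMT2 and EIF2AK4, and the median log2 difference of the 36 was 0.58, against -0.01 for all tested genes. NUPR1 had 71.8, 68.4 and 60.0 CPM in PEO1 and 0.121, 0.329 and 0.326 CPM in COV362, a log2 difference of 7.84 ± 0.27 (edgeR adjusted p = 4.78e-11). TRIB3 had 251, 201 and 176 CPM in PEO1 and 56.5, 27.9 and 37.5 CPM in COV362, a difference of 2.38 ± 0.28 (adjusted p = 6.86e-06). Both genes were higher in every PEO1 library than in any COV362 library, and NUPR1 was near absent in COV362.

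EDEM1 and SLC7A5 followed. EDEM1 had 67.6, 81.0 and 77.3 CPM in PEO1 and 16.1, 31.1 and 26.0 CPM in COV362, with a log2 difference of 1.61 ± 0.20 (edgeR adjusted p = 1.11e-05). SLC7A5 had 963, 853 and 960.3 CPM in PEO1 and 313, 293 and 368 CPM in COV362, with a difference of 1.51 ± 0.14 (adjusted p = 6.16e-07). No library of either gene in PEO1 lay within the COV362 range. With prexasertib, SLC7A5 averaged 520.3 ± 46.2 CPM in PEO1 and 313 ± 44.1 CPM in COV362 (SD, n = 3 each). ATF4 was lower in PEO1, at 317, 273 and 238 CPM against 634, 348 and 395 CPM in COV362, with a difference of -0.73 ± 0.25 (adjusted p = 0.023). That call was lost without COV362 DMSO A, PEO1 DMSO B or PEO1 DMSO C, and the difference ranged from -0.90 to -0.43 over the alternatives. The DDIT3 call was lost in the same fits and with limma-voom. Of the 21 members called between the lines in DMSO, 16 were called under every alternative run.

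Within a line, levels can be compared between genes as CPM per kilobase of exon. In PEO1 with DMSO the members ran from 849 CPM per kilobase for CALR, through 365 for HSP90B1 and 288 for PSAT1, to 0.569 for ERN1. In COV362 with DMSO they ran from 377 for CALR, through 284 for HSP90B1 and 227 for ATF4, to 0.283 for ERN1. Chaperones headed the order in both lines and the IRE1 gene closed it. The largest fitted drug change of a member, that of ERN1, stood on the lowest of these levels, whereas HSPA5, with 194 CPM per kilobase in PEO1, had no called change.

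**Figure D4:**
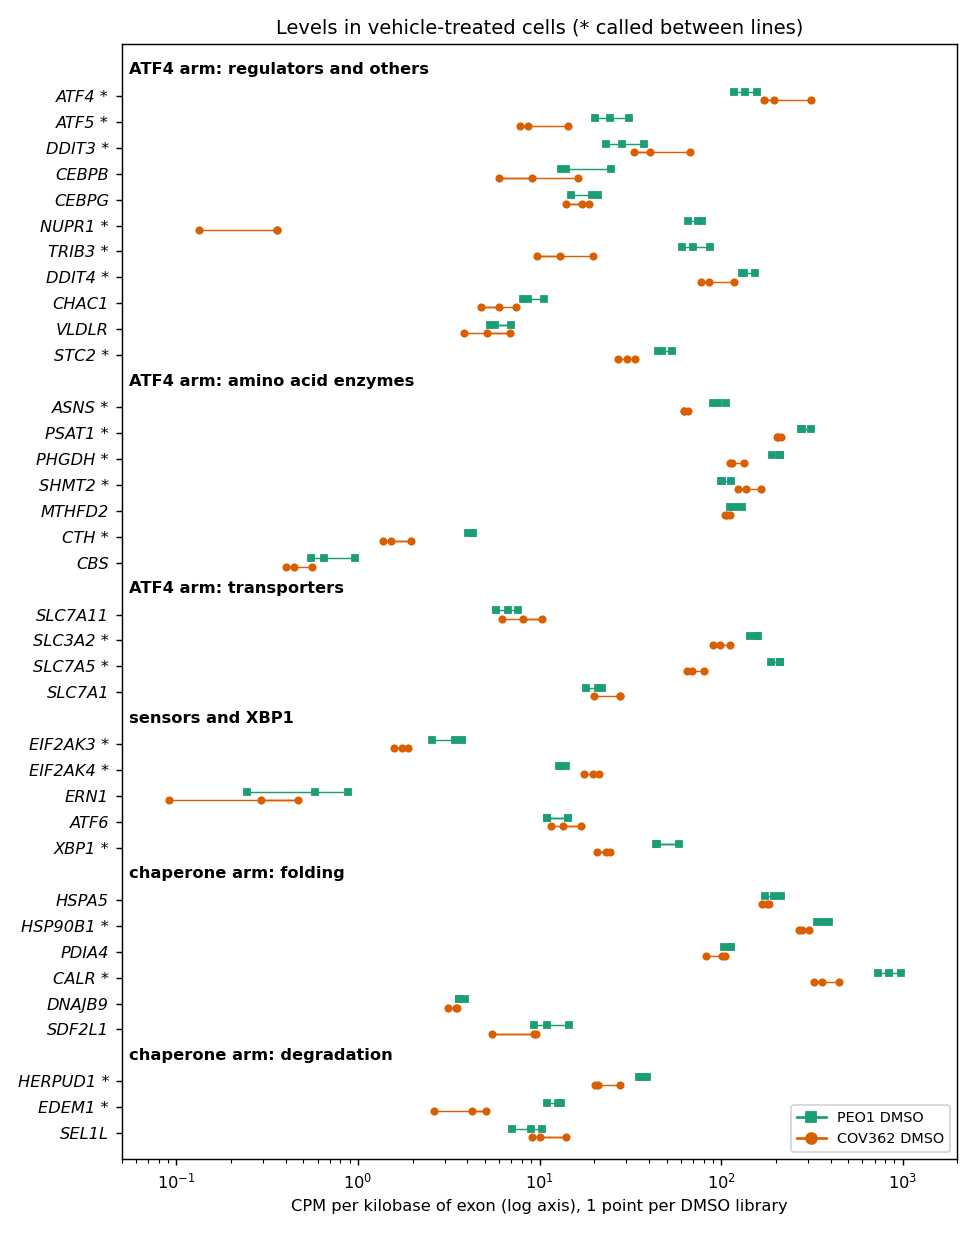
CPM per kilobase of exon of the 36 members in DMSO, PEO1 and COV362, on a log axis, with 1 point per library, a line over each group's range and a star for members called between the lines. NUPR1 averages 73.2 in PEO1 and 0.283 in COV362, TRIB3 averages 72.6 in PEO1 and 14.1 in COV362, and CALR is the highest member in both lines.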

How the data were processed

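Libraries were made from column-purified total RNA with Illumina's TruSeq kit (RNA Library Prep v2), which is not strand-specific, per the labels' protocols. The submitters' processing notes name STAR, Subread's featureCounts 1.4.6 and build hg38, with no role or order. Raw counts per gene were deposited, not normalized by the authors, for libraries of 9390790 to 18262805 counts in total.

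Genes were kept with filterByExpr (minimum count 10, minimum total 15), scaled with TMM factors and tested in edgeR 4.0.16 under R 4.3.3 by a quasi-likelihood F-test on 4 group means over 12 libraries, with 8 residual degrees of freedom and Benjamini-Hochberg adjustment over 14498 genes. There were 4 comparisons. Log2 fold changes carry their standard error and CPM values the SD over 3 libraries. The test was checked on simulated counts.

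Letters were taken to pair libraries where, for every letter, the deviations from the group means correlated by over 0.1 across all tested genes. In COV362 the correlations were 0.41, 0.42 and 0.13 for A, B and C, so a fit with the letter as a block within each line was also used. In PEO1 they were 0.30, 0.17 and 0.08, so for its drug changes the block was run only as an alternative. In the test of the difference the block enters both lines. No pair of replicates agreed within sampling noise. Alternatives were limma-voom 3.58.1, DESeq2 1.42.0, DESeq2's size factors in edgeR, no filter, blocks, offsets on exon length, each line's 6 libraries alone, and leaving out the A libraries or single libraries.

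The members and lists were chosen with earlier results of these data known. Values in every library are given for members called in a drug comparison or in the difference between the lines, for the 4 members with the largest called difference between the lines in DMSO, and, outside that rule, for ATF4 as the arm's namesake. From each other list the 3 called genes with the largest change and a mean of at least 1 CPM were named, ATF3 and PPP1R15A always, and further ones after their values were seen. Promoters are from RefSeq (GRCh38.p14). They are shown for called members that hold a searched motif and for HSPA5. The result of 1 list of cell type markers is not reported here.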

Additional observations from a re-analysis of the deposited data

Results flagged for a closer look

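The drug changes of 3 members differed between the lines in the test of the difference itself (log2 change in PEO1 minus log2 change in COV362, edgeR with Benjamini-Hochberg adjustment over all tested genes). SLC7A5 had a difference of -0.78 (adjusted p = 0.0332), with changes of -0.83 in PEO1 and -0.05 in COV362. PDIA4 had a difference of -0.63 (adjusted p = 0.0461), with changes of -0.88 in PEO1 and -0.25 in COV362. DNAJB9 had a difference of 1.15 (adjusted p = 0.0105), with changes of 1.51 in PEO1 and 0.35 in COV362. All 3 PEO1 prexasertib libraries lay outside the range of the PEO1 DMSO libraries for each of the 3 genes. By that rule, 25% of all tested genes lay above and 25% below in PEO1. The called differences, 2.78% of members higher and 5.56% lower, are near the 3.14% and 2.97% of all tested genes. Of the 12 fits that left out 1 library, DNAJB9 kept its call in 12, SLC7A5 in 6 and PDIA4 in 2.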

How the results depend on the processing

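The counts of called members moved with several settings, and the cause was not tested. In COV362 the 2 higher members became 5 with DESeq2, 9 with the replicate block within each line, 8 with a shared block, 9 with the block and length offsets, 4 without the 4 A libraries and 0 with the line's 6 libraries alone, and 0 to 3 in leave-one-out fits. The 0 lower members there became 2, 1 and 4 in the fits with the within-line block, the shared block and the block with length offsets, and stayed at 0 in leave-one-out fits. In PEO1 the 5 lower members became 8 with DESeq2, with DESeq2's size factors in edgeR, without the filter and with the line's 6 libraries alone, 11 with either block, 9 with length offsets and 12 with block and offsets, and 3 to 8 in leave-one-out fits. The 14 higher ones became 20 and 19 with the within-line and shared block, 19 with block and offsets, 16 without the A libraries, 15 with length offsets or the line's 6 libraries alone, 13 with DESeq2's size factors and 11 without the filter, stayed at 14 with DESeq2 and limma-voom, and ranged from 8 to 14 in leave-one-out fits. The PEO1 letters do not pair its libraries by the rule used, and in neither line did every library correlate best with its own letter. COV362 prexasertib C correlated by 0.138 with COV362 DMSO B and by 0.133 with COV362 DMSO C. For the difference between lines, the 1 higher member became 2 with DESeq2 and without the A libraries, 8 and 6 with the within-line and shared block, 3 with length offsets and 10 with both, and 1 to 3 in leave-one-out fits. The 2 lower members became 8, 6, 4 and 7 with the within-line block, the shared block, length offsets and block with offsets, and 0 to 4 in leave-one-out fits. Between the lines in DMSO, 4 lower members became 8 with either block, 7 with length offsets and 8 with both. Leave-one-out fits had 1 to 4 lower and 15 to 18 higher. In that comparison the higher count of the ATF4 arm, 11, became 13 with either block and with length offsets, and 14 with both.

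CHEK2 in COV362, at -0.53, was called with the within-line block (-0.54, adjusted p = 0.0280), the shared block (-0.53) and block with offsets (-0.62). CHEK2 in PEO1 lost its call without the filter (-0.55) and without the A libraries (-0.45) and ranged from -0.69 to -0.42 in leave-one-out fits. CHEK1 in PEO1 was called with block and offsets (-0.25). CHEK1 between the lines in DMSO lost its call with length offsets (0.27) and ranged from 0.29 to 0.44. No called member changed direction in any alternative. DDIT4, which missed the threshold in PEO1, passed it in all 10 other settings, as did SHMT2, and PHGDH in 8. NUPR1, ERN1 and CBS rest on few counts in some groups, where depth limits the precision.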
